A study of Homo sapiens with 12 samples.

Results

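The FGF, VEGF, PDGF and HGF signalling genes examined here are 40 ligand and receptor genes of the fibroblast growth factor, vascular endothelial growth factor, platelet-derived growth factor and hepatocyte growth factor families, with the angiopoietins and the KIT pair. They were taken by symbol from a table of 62069 genes, and all 40 were found. The cells were IMR90 ER:RAS, human lung fibroblasts carrying an oncogenic RAS fused to an estrogen receptor domain, so that 4-hydroxytamoxifen (4OHT) switches RAS on and drives oncogene-induced senescence (OIS). There were 12 libraries in 4 groups of 3: non-induced cells, induced cells, and induced cells carrying shXPO7_3 or shXPO7_5, an shRNA against the nuclear transport receptor XPO7. All were passage 13 and labelled 5 days after 4OHT, the non-induced included, and the treatment protocol gave 100 nM 4OHT. The growth protocol instead gives 7 days of culture, and how these relate is not stated. The study names both groups without an XPO7 shRNA vector. In the shRNA groups a single hairpin was used per group. Whether libraries of the same group are separate cultures is not given in the labels. The p-values therefore rest on library-to-library spread, part of which may be technical.

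These families work by the same logic. A secreted ligand binds a receptor tyrosine kinase at the cell surface, the receptors pair and phosphorylate each other, and adaptor proteins pass the signal to the RAS-MAPK and PI3K pathways. Fibroblasts are the classic responders to PDGF and FGF. VEGF and the angiopoietins act mainly on endothelium, and HGF acts mainly on epithelium through its receptor MET. Fibroblasts can make a ligand while a neighbouring cell carries the receptor. In these cells MET, TEK and KIT transcripts were also present, at levels given below. Senescent fibroblasts are known for secreting growth factors together with cytokines and proteases.

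Levels are given as CPM, counts scaled to library size with TMM factors, or as RPKM, which also divides by exon length, where genes are compared with each other. The libraries held 28534141 to 60397769 counts, so 1 count was a small fraction of 1 CPM. XPO7, the targeted gene, was at 137 ± 8.81 CPM (SD, n = 3) in induced cells, 27.7 ± 1.14 with shXPO7_3 and 52.2 ± 1.62 with shXPO7_5. All 10 fibroblast markers checked were expressed. They summed to 27732 to 32126 CPM in non-induced and 20310 to 21868 CPM in induced libraries. With RAS induction 7 of the 10 were called lower and 0 higher, beside 26.1% and 24.8% of all genes. DCN went from 987 to 95.6 CPM. Of 10 endothelial markers, PECAM1 and CDH5 were at 0 in every library, and the summed level of the list went from 8.64 to 10.3 CPM in non-induced to 39.9 to 42.5 CPM in induced libraries, chiefly ROBO4 and TIE1. Pericyte markers summed to 395 to 459 CPM in non-induced and 262 to 287 CPM in induced libraries, melanocyte markers to 0.85 to 1.27 and 4.56 to 4.86 CPM, and epithelial markers to 69.1 to 84.6 and 40.1 to 46.3 CPM. Of 6 pericyte markers 1 was called higher and 4 lower, beside 24.8% and 26.1% of all genes, and RGS5 went from 13.1 to 21.0 CPM. The melanocyte sum in induced libraries was PMEL alone, with MLANA, TYR and DCT at 0. Among epithelial markers KRT19 went from 33.6 to 2.01 CPM, while KRT18 was at 32.4 and 34.0 CPM. The mast cell and leukocyte lists stayed below 0.35 CPM in all 12 libraries. The part of these markers in the results was not tested. In bulk RNA, fewer cells of a type and less RNA per cell cannot be told apart.

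Every member had at least 1 count in at least 1 library, so none was undetected throughout. A filter on low counts left 33 members for testing. The 7 below it were FGF9, FGF10, FGF13, FGF16, FGFR2, VEGFD and FLT4, which had at most 14 counts in any library. FGF16 had 4 counts over all 12 libraries, FGF10 had 11 and FGFR2, the receptor of epithelial cells for FGF7 and FGF10, had 19. FLT4, the receptor of VEGFC and VEGFD, had 3 to 14 counts per library. FGF9 had 6 to 11 counts in non-induced libraries and 0 to 4 in the other groups. Of the tested members, ANGPT2, FGF14 and PDGFB passed the filter through the RAS-induced groups and were below its level of 0.283 CPM in non-induced libraries, so for them a difference with RAS induction was built into the selection. KDR passed through the 2 shRNA groups, FGF11 through shXPO7_5, and FGF18 in no group as a whole.

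Per length, the members of induced cells spanned from ANGPTL4 at 67.7 ± 1.21 RPKM (SD, n = 3) to FGF13 at 0.00191 ± 0.00133 RPKM. VEGFC (53.1 ± 1.48 RPKM) came after ANGPTL4, and KITLG (30.8 ± 2.78), PDGFRB (30.5 ± 0.67) and PDGFC (29.1 ± 1.23) followed. KITLG and PDGFRB overlapped between libraries, as did PDGFRB and PDGFC. In non-induced cells the order opened with VEGFB (43.5 ± 3.99 RPKM) and FGF5 (43.2 ± 4.61 RPKM), whose libraries overlapped, and ANGPTL4 came at rank 15 with 5.99 ± 0.37 RPKM. The receptors of highest level were PDGFRB and PDGFRA in both groups.

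The first comparison asked how the growth factor genes stand in senescent cells, induced against non-induced. Of the 33 tested members, 27 passed an adjusted p of 0.05 in edgeR's quasi-likelihood test, 13 higher and 14 lower in induced cells. The members' shares were 39.4% higher and 42.4% lower. The background over all 15284 genes in the fit was 50.9% called, with 24.8% in the higher and 26.1% in the lower direction. The median size of the log2 fold change was 0.86 for the tested members and 0.38 for all genes. All 3 induced libraries lay above all 3 non-induced libraries for 13 members and below them for 13, against 31.8% and 31.4% of all genes. ANGPT2, FGF14 and PDGFB, for which a difference was built into the selection, are among the 13 called higher and the 13 above. They also count in the median size of 0.86. Among the 27 members over the filter level in every non-induced library, 10 were called higher and 14 lower. That restriction was not applied to all genes, so these counts have no all-gene share beside them. By role, 16 ligands and 11 receptors were over the filter level in every non-induced library. Of these ligands 8 were called higher and 8 lower, with a median log2 fold change of −0.04. Of these receptors 2 were called higher, FLT1 and FGFRL1, and 6 lower, with a median of −0.22. That difference between ligands and receptors was not tested.

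**Figure D1:**
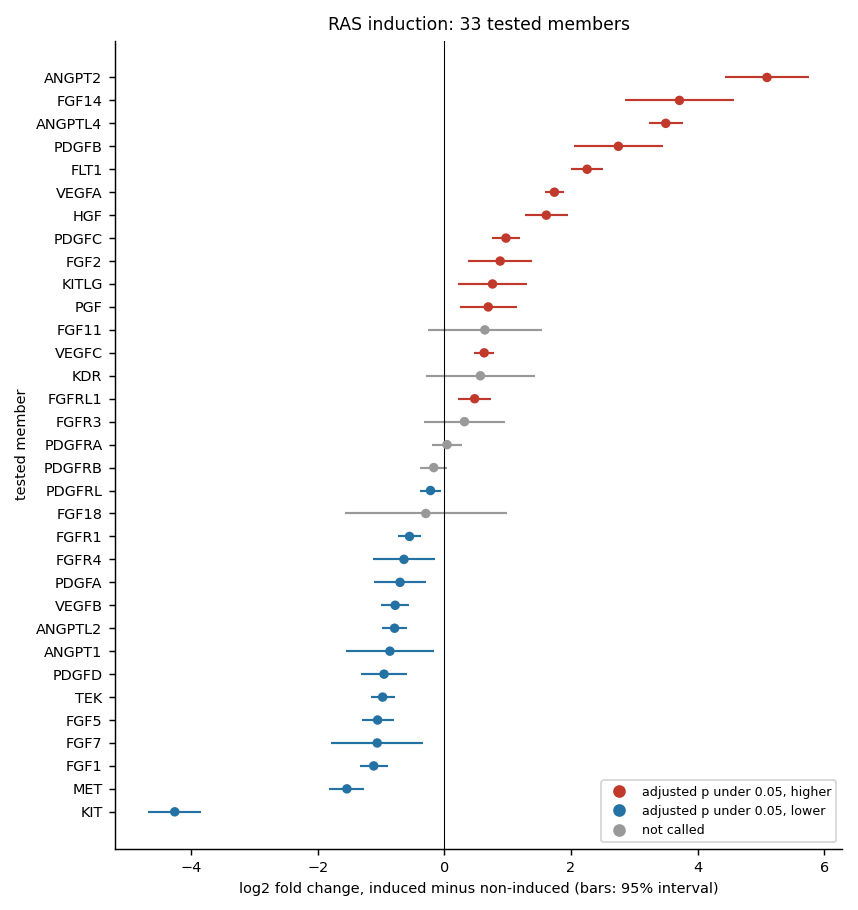
Log2 fold change of induced over non-induced cells for the 33 tested members, sorted by size, with 95% intervals from edgeR, red for members called higher, blue for members called lower and grey for members not called. ANGPT2 (5.10), FGF14 (3.71) and ANGPTL4 (3.50) stand at the upper end and KIT (−4.26) and MET (−1.54) at the lower end.

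The 6 members with the largest called changes among those with a promoter in the RefSeq table are shown by the 250 bases before their RefSeq start, read 5′ to 3′ on the gene's strand in GRCh38.p14. They include genes that rose and genes that fell. ANGPT2, PDGFB and VEGFA changed by more than HGF and MET but had no promoter there. For FGF14 a difference was built into the selection. ANGPTL4 is at chr19:8363905-8364154 on the plus strand, FGF14 at chr13:102402444-102402693 on the minus strand, FLT1 at chr13:28495129-28495378 on the minus strand, HGF at chr7:81770048-81770297 on the minus strand, KIT at chr4:54657707-54657956 on the plus strand and MET at chr7:116671946-116672195 on the plus strand. Capitals mark matches on either strand to 4 short motifs. The motif searched for the AP-1 factors was TGANTCA. For the ETS factors, which act downstream of RAS, it was CCGGAAG. The core of the hypoxia response element is ACGTG, and the TATA box was searched as TATAAA.
ANGPTL4: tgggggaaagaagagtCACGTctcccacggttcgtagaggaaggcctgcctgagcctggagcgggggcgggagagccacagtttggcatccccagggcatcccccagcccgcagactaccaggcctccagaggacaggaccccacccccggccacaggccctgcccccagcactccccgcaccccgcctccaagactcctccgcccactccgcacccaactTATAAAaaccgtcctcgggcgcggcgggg
FGF14: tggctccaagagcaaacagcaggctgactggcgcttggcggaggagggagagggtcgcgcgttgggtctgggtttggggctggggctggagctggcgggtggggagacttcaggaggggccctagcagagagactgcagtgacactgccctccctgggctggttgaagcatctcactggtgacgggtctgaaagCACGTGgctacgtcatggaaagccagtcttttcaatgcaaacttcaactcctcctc
FLT1: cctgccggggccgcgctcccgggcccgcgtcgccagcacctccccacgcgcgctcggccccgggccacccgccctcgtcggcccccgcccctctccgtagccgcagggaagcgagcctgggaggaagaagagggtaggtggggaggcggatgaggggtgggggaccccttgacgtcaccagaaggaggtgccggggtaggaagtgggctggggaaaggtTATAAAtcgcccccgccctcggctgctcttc
HGF: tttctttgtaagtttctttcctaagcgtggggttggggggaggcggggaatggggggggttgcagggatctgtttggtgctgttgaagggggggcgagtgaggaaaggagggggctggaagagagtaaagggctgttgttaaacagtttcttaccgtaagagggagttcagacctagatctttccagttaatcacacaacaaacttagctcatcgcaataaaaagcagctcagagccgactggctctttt
KIT: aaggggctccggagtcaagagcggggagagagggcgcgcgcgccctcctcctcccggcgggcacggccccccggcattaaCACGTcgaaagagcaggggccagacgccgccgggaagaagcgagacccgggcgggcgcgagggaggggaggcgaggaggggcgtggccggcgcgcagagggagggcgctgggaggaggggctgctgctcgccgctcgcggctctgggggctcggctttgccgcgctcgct
MET: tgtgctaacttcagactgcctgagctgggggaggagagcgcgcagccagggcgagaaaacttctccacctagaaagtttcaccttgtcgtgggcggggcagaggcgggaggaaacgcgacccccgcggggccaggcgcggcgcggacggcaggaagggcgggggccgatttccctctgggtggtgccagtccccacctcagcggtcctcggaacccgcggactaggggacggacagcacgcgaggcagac

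ANGPTL4 and FLT1 held a TATAAA near the start, a motif in 10.7% of 35116 RefSeq promoter windows of this length. ANGPTL4 and KIT held 1 ACGTG each and FGF14 held 2 that overlap as a palindrome, and 18.5% of all windows held at least 1. No AP-1 match (6.57% of windows) or ETS match (8.52%) was found in these 6 windows. A promoter was found for 30 of the 40 members, all but ANGPT1, ANGPT2, FGF9, FGF16, FGFR1, FLT4, PDGFB, PDGFC, PDGFRL and VEGFA. Among the members called higher, 3 of 9 windows held ACGTG and 3 held TATAAA, and among those called lower 1 of 11 held ACGTG and 0 held TATAAA.

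Of the secreted FGF ligands, FGF2 rose and FGF1, FGF5 and FGF7 fell with RAS induction. FGF1, which binds all FGF receptors, read 12.4, 13.5 and 15.1 CPM in the non-induced libraries and 6.29, 5.81 and 6.74 CPM in the induced ones. The groups did not overlap, and the log2 fold change was −1.12 ± 0.10 (SE, adjusted p = 1.64e-06 in edgeR). FGF5, a ligand best known for ending the growth phase of hair, went from 233, 256 and 288 CPM to 129, 122 and 123 CPM, a change of −1.06 ± 0.12 (adjusted p = 9.55e-06). Its induced libraries were all well below its non-induced ones and close to each other.

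FGF7, or keratinocyte growth factor, which mesenchymal cells make for epithelium, read 15.4, 25.3 and 35.6 CPM in non-induced libraries T, A and C and 12.5, 12.97 and 11.2 CPM in induced libraries T, A and B. The non-induced libraries spread over more than the induced ones, and the log2 fold change was −1.06 ± 0.34 (adjusted p = 0.019). The call did not hold without non-induced C, induced T or induced B (adjusted p up to 0.0895, log2 fold change from −1.32 to −0.74 with 1 library left out). FGF2, or basic FGF, went from 75.6 ± 19.2 CPM (SD, n = 3) to 139 ± 16.3 CPM, a log2 fold change of 0.88 ± 0.23 (adjusted p = 0.00736), and its groups did not overlap. FGF18 was at 0.04 to 0.27 CPM in induced libraries and was not called.

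FGF14 and FGF11 belong to the intracellular FGF homologous factors, which bind sodium channels and are not secreted. FGF14 had 4, 4 and 1 counts in the non-induced libraries and 46, 24 and 61 in the induced ones, or 0.12, 0.10 and 0.03 CPM against 1.26, 0.85 and 1.23 CPM. The log2 fold change was 3.71 ± 0.40 (adjusted p = 7.74e-06), at a level that stayed near 1 CPM. FGF11, with 5 to 20 counts in these 6 libraries, was not called (0.64 ± 0.41, adjusted p = 0.218).

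Of the FGF receptors, FGFR1 and FGFR4 fell and FGFRL1 rose. FGFR1, the main FGF receptor of fibroblasts, fell from 253 ± 23.9 to 173 ± 4.64 CPM, a log2 fold change of −0.55 ± 0.08 (adjusted p = 0.000152). FGFRL1, a receptor relative without a kinase domain, rose from 42.4 ± 4.55 to 59.0 ± 1.43 CPM (0.48 ± 0.12, adjusted p = 0.00507). FGFR4 fell from 1.78 ± 0.14 to 1.14 ± 0.11 CPM (−0.64 ± 0.22, adjusted p = 0.0299), a call lost without non-induced T or A or induced T or A (adjusted p up to 0.0952). FGFR3 was at 0.43 to 0.46 CPM in non-induced libraries and 0.39 to 0.77 CPM in induced ones and was not called.

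Among the VEGF ligands, VEGFA and VEGFC rose and VEGFB fell. VEGFA, the central angiogenic factor, read 56.0, 53.7 and 47.8 CPM in the non-induced libraries and 181, 174 and 169.7 CPM in the induced ones. Every induced library was over 3-fold above any non-induced library, and the log2 fold change was 1.74 ± 0.07 (adjusted p = 8.25e-10). VEGFC, the lymphatic ligand, went from 83.1 ± 6.14 to 128 ± 3.59 CPM (0.63 ± 0.07, adjusted p = 1.82e-05). VEGFB went from 67.2 ± 6.16 to 39.2 ± 1.55 CPM (−0.78 ± 0.10, adjusted p = 4.97e-05). PGF, placental growth factor, a ligand of FLT1, went from 0.41 ± 0.02 to 0.66 ± 0.02 CPM (0.69 ± 0.21, adjusted p = 0.022). The PGF call was lost without non-induced A, induced T or induced B (adjusted p up to 0.073). Over all 13 alternative fits that tested PGF, its call was lost in 6, with adjusted p up to 0.0972.

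FLT1 (VEGFR1), which binds VEGFA, VEGFB and PGF, was at 5.59, 5.85 and 6.43 CPM in non-induced and 28.7, 29.8 and 26.9 CPM in induced libraries. The groups were far apart and tight, with a log2 fold change of 2.25 ± 0.12 (adjusted p = 9.8e-09). KDR (VEGFR2), the main signalling receptor for VEGFA on endothelium, had 7 to 22 counts in these libraries and was not called (0.57 ± 0.39, adjusted p = 0.249). Of the endothelial markers, PECAM1 and CDH5 were at 0 in the same libraries. ROBO4 went from 2.34 to 26.5 CPM, TIE1 from 1.06 to 6.21 CPM, VWF from 2.22 to 3.14 CPM and EGFL7 from 3.75 to 5.01 CPM. Of the 5 tested endothelial markers 3 were called higher and 0 lower, beside 24.8% and 26.1% of all genes. How these markers relate to the change of FLT1 was not tested.

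Of the PDGF ligands, PDGFB and PDGFC rose and PDGFA and PDGFD fell. PDGFB had 4, 4 and 3 counts in the non-induced libraries (0.12, 0.10 and 0.09 CPM) and 34, 18 and 27 in the induced ones (0.93, 0.64 and 0.54 CPM). Its log2 fold change was 2.75 ± 0.32 (adjusted p = 1.8e-05), with both groups under 1 CPM. PDGFC, which needs proteolytic release of its CUB domain to bind PDGFRA, went from 82.9 ± 4.21 to 163 ± 6.90 CPM (0.97 ± 0.10, adjusted p = 7.03e-06). PDGFD, activated in the same way and binding PDGFRB, went the other way, from 12.5 ± 1.74 to 6.47 ± 0.76 CPM (−0.95 ± 0.17, adjusted p = 0.000447). PDGFA went from 3.22 ± 0.85 to 1.97 ± 0.31 CPM (−0.70 ± 0.19, adjusted p = 0.00844), and its libraries overlapped, with non-induced C at 2.24 CPM and induced B at 2.26 CPM.

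The PDGF receptors were not called with RAS induction. PDGFRA was at 246 ± 20.1 CPM in non-induced and 253 ± 12.9 CPM in induced cells, with a log2 fold change of 0.04 and a 95% interval of −0.20 to 0.28. PDGFRB was at 244 ± 25.0 and 217 ± 4.8 CPM (−0.17, −0.39 to 0.05, adjusted p = 0.177). PDGFRL, a receptor-like gene without a kinase domain, fell from 26.1 ± 1.28 to 22.4 ± 1.29 CPM (−0.22 ± 0.08, adjusted p = 0.0349). That call was lost without non-induced T or A or induced T or A (adjusted p up to 0.126). Over all 14 alternative fits the PDGFRL call was lost in 6, with adjusted p up to 0.185.

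HGF and its receptor moved in opposite directions. HGF, or scatter factor, read 55.7, 71.5 and 78.5 CPM in the non-induced libraries and 216, 214 and 198 CPM in the induced ones. The induced libraries all lay far above the non-induced ones, and the log2 fold change was 1.61 ± 0.16 (adjusted p = 3.29e-06). MET read 54.4, 61.9 and 68.0 CPM in the non-induced libraries and 19.7, 22.9 and 20.7 CPM in the induced ones. Its groups did not overlap either, and it fell by 1.54 ± 0.13 on the log2 scale (adjusted p = 7.58e-07).

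Of the angiopoietins, which signal through TEK, ANGPT2 rose, and ANGPT1 and TEK fell. ANGPT2, which can act against ANGPT1 at the receptor, had 1, 5 and 4 counts in the non-induced libraries (0.03, 0.12 and 0.11 CPM) and 116, 107 and 141 in the induced ones (3.17, 3.79 and 2.84 CPM). The log2 fold change of 5.10 ± 0.31 (adjusted p = 4.16e-08) was the largest of the tested members, from a start of 10 counts over 3 libraries. ANGPT1, the activating ligand, read 23.1, 33.7 and 46.2 CPM and then 19.4, 21.5 and 15.9 CPM. Its log2 fold change of −0.86 ± 0.32 (adjusted p = 0.0395) was not called without non-induced A or C or any 1 of the 3 induced libraries (adjusted p up to 0.162). TEK (TIE2) went from 12.4 ± 0.46 to 6.31 ± 0.26 CPM (−0.98 ± 0.09, adjusted p = 1.52e-06).

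The angiopoietin-like genes encode secreted proteins that do not bind TEK. ANGPTL4, an inhibitor of lipoprotein lipase, read 15.9, 14.5 and 14.2 CPM in the non-induced libraries and 165, 167 and 171 CPM in the induced ones. The induced level was 11.3 times the non-induced level, a log2 fold change of 3.50 ± 0.12 (adjusted p = 3.48e-10). ANGPTL2 went down instead, from 74.6 ± 8.25 to 43.2 ± 1.32 CPM (−0.79 ± 0.09, adjusted p = 1.53e-05).

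KIT and its ligand also moved apart. KIT, the receptor of stem cell factor, read 12.5, 14.7 and 14.9 CPM in the non-induced libraries and 0.85, 0.71 and 0.65 CPM in the induced ones. It fell by 4.26 ± 0.19 on the log2 scale (adjusted p = 2.92e-09), to 0.0523 of its non-induced level, with 20 to 32 counts left per induced library. KITLG, or stem cell factor, rose from 113 ± 32.2 to 191 ± 17.3 CPM (0.76 ± 0.25, adjusted p = 0.0249), a call lost without non-induced T or A or induced T or A (adjusted p up to 0.086). PDGFRA, KIT and KDR neighbour each other on chromosome 4, and of these only KIT was called.

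**Figure D2:**
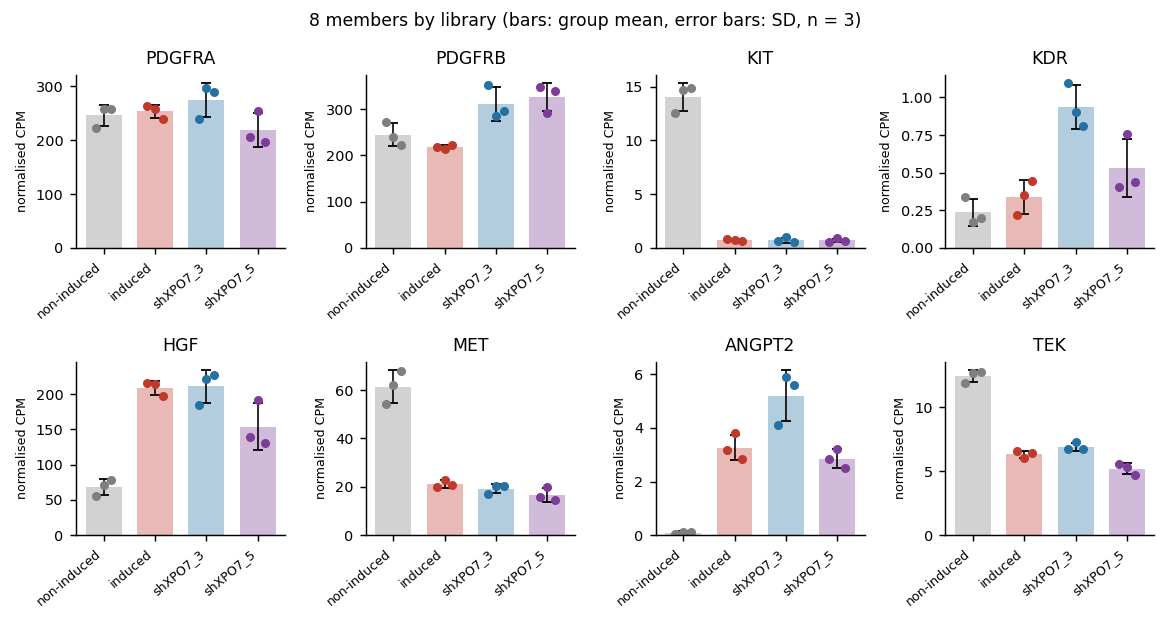
Normalised CPM of 8 members by library, with bars for the group mean, error bars for the SD (n = 3) and points for libraries. PDGFRA differs little between groups, PDGFRB is higher in both shRNA groups than in induced cells, KIT and MET are low in all RAS-induced groups, HGF is high in them, and KDR and ANGPT2 are highest with shXPO7_3.

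Other genes of the pathways were taken from 6 lists with 81 tested genes, of which 24 were called higher and 21 lower with RAS induction, or 55.6% beside 50.9% of all genes. Of 16 tested co-receptors and ligand binders, 3 were called higher and 9 lower, with a median log2 fold change of −0.53 beside −0.01 over all genes. TIE1, the partner receptor of TEK, rose by 2.55 on the log2 scale and FLRT3, which binds FGF receptors, by 2.03, while SDC3, a heparan sulfate proteoglycan, fell by 1.39 and FLRT2 by 1.01. Of 15 tested genes of heparan sulfate synthesis and editing, the sugar chains that FGFs, VEGFA and HGF bind, 7 were higher and 4 lower (median 0.25). The sulfotransferases HS3ST3B1 (1.89) and HS3ST3A1 (1.56) rose, and HS6ST1 (−1.21) and the sulfatase SULF1 (−1.07) fell.

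Of 28 tested receptor adaptors and proximal effectors, 10 were higher and 5 lower (median 0.14). For this list and those above and below, the shares of all genes were 24.8% called higher and 26.1% called lower. RASA1, a RAS GTPase-activating protein, rose by 0.97 and the adaptor SHC4 by 0.72, while the phosphatase PTPRB fell by 1.71 and the adaptor GAB1 by 0.83. Of 6 tested genes of HGF activation, 2 were higher and none lower (median 0.02). They were the plasminogen activators PLAU, from 723 to 3978 CPM (2.46), and PLAT, from 243 to 1155 CPM (2.25). The other ligands and receptors of the same families left 3 of 20 for testing, of which CSF1R, the receptor of the macrophage growth factor, was higher (1.27, from 0.35 to 0.84 CPM). Of 13 tested genes of oxygen sensing, 1 was higher and 3 lower (median −0.05). NDRG1 rose by 0.65, and the transcription factors ARNT2 (−2.10) and EPAS1 (−1.66) and the peptide hormone ADM (−0.86) fell. How these changes relate to that of VEGFA was not tested.

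The next comparisons asked what depletion of XPO7 did to these genes in RAS-induced cells. Both use the same 3 induced libraries, so they are not independent of each other. With shXPO7_3, which left less XPO7, no member was called in edgeR, beside 0.124% of all genes (19 genes). At an unadjusted p under 0.05 there were 8 of 33 members, beside 979 of 15284 genes (6.41%). DESeq2 called 1 member, PDGFRB, and 0.576% of all genes. The median size of the log2 fold change was 0.14 for the members and 0.08 for all genes. All 3 libraries lay above the induced ones for 9 members, 27.3% of those tested beside 7.46% of all genes, and below them for 3, or 9.09% beside 7.15%. The 9 include KDR, which passed the filter only through the shRNA groups, so that its height there was part of its selection.

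With shXPO7_5 1 member was called, PDGFRB, which was higher. Of all genes 0.589% were called and 0.478% called higher. At an unadjusted p under 0.05 there were 14 of 33 members, beside 3302 of 15284 genes (21.6%). DESeq2 called 3 members, FGFR1, PDGFRB and ANGPTL2, and 2.79% of all genes. Libraries lay all above the induced ones for 6 members, 18.2% beside 14.2% of all genes, and all below for 4, or 12.1% beside 12.6%. Between the 2 shRNAs, no member was called in edgeR (0.0131% of all genes, 2 genes). At an unadjusted p under 0.05 there were 9 of 33 members, beside 1819 of 15284 genes (11.9%). DESeq2 called 1, ANGPT2, and 0.177% of all genes.

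PDGFRB, the receptor for PDGFB and PDGFD on mesenchymal cells, read 218, 213 and 222 CPM in induced libraries T, A and B. With shXPO7_3 it read 352, 284 and 296 CPM and with shXPO7_5 347, 291 and 339.9 CPM. All 6 shRNA libraries lay above all 3 induced ones, which were tight, and above the non-induced libraries of 271, 241 and 222 CPM. The log2 fold change was 0.58 ± 0.10 with shXPO7_5 (adjusted p = 0.0256 in edgeR) and 0.52 ± 0.10 with shXPO7_3 (adjusted p = 0.0834). The exact permutation test gave p = 0.1 for each, two-sided, the smallest that 3 against 3 libraries allow. Between the shRNAs PDGFRB differed by 0.07, with a 95% interval of −0.15 to 0.28. The call with shXPO7_5 was lost in each fit that left out induced T, A or B or shXPO7_5 T or B, with adjusted p up to 0.128 and log2 fold changes of 0.54 to 0.60. Those fits called 0.0127% to 0.0901% of all genes, beside 0.589% with all libraries. Without shXPO7_5 A the adjusted p was 0.0119. Pericyte markers, whose cells also carry PDGFRB, summed to 262 to 287 CPM in induced libraries, 258 to 320.1 CPM with shXPO7_3 and 260.3 to 296 CPM with shXPO7_5, and these ranges overlap.

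Values of some other members, not called with either shRNA in edgeR, are given as measured. They were picked after the results were seen. PDGFB, the ligand of PDGFRB, read 0.93, 0.64 and 0.54 CPM in induced libraries, 1.04, 0.996 and 1.28 CPM with shXPO7_3 and 1.58, 1.21 and 1.42 CPM with shXPO7_5. Its log2 fold change was 0.67 ± 0.22 with shXPO7_3 (adjusted p = 0.469) and 1.001 ± 0.22 with shXPO7_5 (adjusted p = 0.065). KDR had 8, 10 and 22 counts in induced libraries and 40, 30 and 48 with shXPO7_3, or 1.42 ± 0.32 on the log2 scale (adjusted p = 0.15). With shXPO7_5 it had 12, 25 and 16 counts (0.62 ± 0.35, adjusted p = 0.278). KDR passed the filter through the shRNA groups, so its height there was part of its selection.

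ANGPT2 read 3.17, 3.79 and 2.84 CPM in induced libraries, 4.12, 5.89 and 5.61 CPM with shXPO7_3 and 2.83, 3.23 and 2.51 CPM with shXPO7_5. It stood above the induced libraries with shXPO7_3 (0.68 ± 0.18, adjusted p = 0.248) and overlapped them with shXPO7_5 (−0.18 ± 0.19, adjusted p = 0.514). Between the shRNAs the difference was −0.87 ± 0.18 (adjusted p = 0.31 in edgeR and 0.0305 in DESeq2). ANGPTL2 was 0.24 ± 0.09 higher with shXPO7_3 (adjusted p = 0.579) and 0.36 ± 0.09 with shXPO7_5 (adjusted p = 0.0945), and FGFR1 0.16 ± 0.08 and 0.30 ± 0.08 (adjusted p = 0.886 and 0.117). ANGPTL4 was −0.28 ± 0.11 with shXPO7_3 (adjusted p = 0.632) and −0.18 ± 0.11 with shXPO7_5 (adjusted p = 0.309).

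None of KIT, VEGFA, FLT1 and HGF, which RAS induction moved strongly, was called with either shRNA. KIT was at 0.73 ± 0.10 CPM in induced cells, 0.71 ± 0.23 with shXPO7_3 and 0.71 ± 0.15 with shXPO7_5, with 95% intervals of the log2 difference of −0.59 to 0.43 and −0.56 to 0.50. VEGFA was at 175 ± 5.78, 169 ± 4.08 and 161 ± 1.01 CPM, with intervals of −0.20 to 0.09 and −0.26 to 0.02. FLT1 was at 28.5 ± 1.46, 29.2 ± 3.68 and 25.7 ± 2.69 CPM, with intervals of −0.20 to 0.27 and −0.38 to 0.09. HGF was at 209 ± 9.97, 211 ± 23.1 and 154 ± 33.4 CPM, and its interval with shXPO7_5, −0.78 to −0.11, lay below 0 while the adjusted p was 0.173.

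Of the 81 tested genes of the other pathway lists, 2 were called with shXPO7_5 (2.47% beside 0.589% of all genes) and 0 with shXPO7_3 (0.124% of all genes). HS3ST3A1 was 0.50 higher (adjusted p = 0.0489) and ADM 0.52 higher (adjusted p = 0.0389) with shXPO7_5. With shXPO7_3 they were 0.34 higher (adjusted p = 0.341) and 0.43 higher (adjusted p = 0.152).

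The members' values with shXPO7_5 varied with the GC content of their transcripts. Over the 33 tested members, the log2 fold change with shXPO7_5 had a Pearson r of 0.73 and a Spearman rho of 0.75 with GC content, beside 0.06 and 0.15 with shXPO7_3 and 0.04 and 0.09 with RAS induction. These are descriptions across genes, which share the libraries. The 11 members of lowest GC content (34.1% to 43.6%, among them FGF7, KITLG, ANGPT1, HGF and FGF2) had a median log2 fold change of −0.44 with shXPO7_5, and none had a positive value. The 11 of highest GC content (56.9% to 64.9%, among them PDGFRB, PDGFB, FGFR4, VEGFB and ANGPTL4) had a median of 0.24, and 9 had a positive value, of which PDGFRB was called. With an offset per library for GC content and length the medians became −0.06 and 0.04, and r became 0.32. The offset was fitted over all genes without using the groups, and removes a trend with GC content whatever its source. The smaller values therefore follow from how it was made, and the source of the trend was not tested.

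The same members spread between libraries of 1 group. Relative to the mean of their own group, the low GC members had a median log2 ratio of −0.28 in non-induced T, −0.30 in shXPO7_3 T and −0.21 in shXPO7_5 B, and of 0.21 in non-induced C and 0.32 in shXPO7_5 A. The high GC members went the other way, at 0.10, 0.15 and 0.11 in the first 3 libraries and −0.12 and −0.13 in the last. FGF7 shows it at the level of 1 gene, with 4.72, 8.70 and 3.63 CPM in shXPO7_5 T, A and B, as does KITLG with 106, 173 and 91.7 CPM. The number of members called with shXPO7_5 was 12 without library A, with FGF2, FGF7, HGF, MET, ANGPT1, KITLG and PDGFRA lower and FGFR1, VEGFB, PDGFB, PDGFRB and ANGPTL2 higher, and 0 without any 1 of the other 5 libraries. Without library A 23.0% of all genes were called, beside 0.589% with it. Without any 1 of the other 5 libraries, 0.0127% to 0.0901% of all genes were called.

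With the offset, 6 members were called with each shRNA, and the calls over all genes also rose, to 2.5% with shXPO7_3 and 3.29% with shXPO7_5. PDGFRB was called higher with both, at 0.49 with shXPO7_3 (adjusted p = 0.00022) and 0.43 with shXPO7_5 (adjusted p = 0.000473), and ANGPTL2 was called higher at 0.23 and 0.26. ANGPTL4 was called lower with both, at −0.30 (adjusted p = 0.00412) and −0.41 (adjusted p = 0.000561). With shXPO7_3 KDR, PDGFD and ANGPT2 were also higher, and with shXPO7_5 FGFR1 was higher and FGF7 and KITLG lower. KDR passed the filter only through the shRNA groups, so its height there was part of its selection. HGF, a low GC member, was at −0.44 with shXPO7_5 without the offset and −0.06 with it, a shift that the offset itself makes. With RAS induction the offset left 26 of the 27 members called, all but FGFR4, while the share of all genes called rose from 50.9% to 64.8%.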

How the data were processed

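RNA of IMR90 ER:RAS cells was sequenced in 12 libraries after a stranded mRNA library preparation. The authors deposited 1 table of read counts per gene, and per the labels' processing notes CASAVA 1.8.4, TopHat2 2.0.11 and featureCounts 1.18.0 were used with the builds hg19 and GRCh37. No normalization was applied to the deposited counts, and the strand setting of the counting is not given in the sources used here. Samples were grouped by their titles. Gene symbols were matched to 50409 of 62069 gene IDs, which hold 99.5% of the counts. The 92 spike-in rows were 0 throughout.

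Counts were tested with edgeR 4.0.16 in R 4.3.3 (filterByExpr, TMM factors, quasi-likelihood F-test, all 12 libraries in 1 fit), with Benjamini-Hochberg adjustment over all 15284 genes tested and a threshold of 0.05. RPKM used exon lengths of GENCODE 29, and GC content its transcripts, for 97.3% of tested genes. The scripts were tested on simulated counts. Libraries of a group differed beyond counting noise (chi-square per gene 4.27 to 56.2), so none was a copy of another within counting noise, which does not show that they are separate cultures. Alternatives were other scalings, filters, DESeq2 1.42.0, only the groups compared, a replicate block, a fold threshold, an offset for GC content and length, and each library left out. Promoter sequences come from RefSeq (GRCh38.p14). Members with full values were those called with a log2 fold change of at least 1 in size with RAS induction, or called with an shRNA. Values of members not called with an shRNA were added after the results were seen, as were the GC groups and the number of promoters. Members and lists were chosen with earlier results of these data known.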

Additional observations from a re-analysis of the deposited data

Results flagged for a closer look

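TEK, the angiopoietin receptor, stood on opposite sides of the induced libraries with the 2 shRNAs. All 3 shXPO7_3 libraries (6.72, 7.25 and 6.71 CPM) lay above the induced ones (6.53, 6.03 and 6.37 CPM), with a log2 fold change of 0.12, and all 3 shXPO7_5 libraries (5.59, 5.32 and 4.70 CPM) lay below them, with −0.28. The direct test between the shRNAs gave −0.41 ± 0.09 with an adjusted p of 0.346 in edgeR, so the difference was not called. With the offset for GC content and length it was −0.35 (adjusted p = 0.0913).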

How the results depend on the processing

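With RAS induction, the number of members called was 27 and stayed between 21 and 27 under the other scalings, filters and tools and with 1 library left out, and was 12 at a log2 fold change of at least 1 in size. The alternatives without a fold minimum called from 24.6% of all genes, without the filter, to 64.8%, with the offset for GC content and length. No called change reversed in any alternative. Leaving the fold minimum aside, 21 of the 27 calls held in each alternative in which the member was tested, and FGF14, KIT, PDGFB and PGF were not tested under the filter of 1 CPM in 6 libraries. Of 388 alternative values for called members, 37 lost the call. Upper-quartile scaling moved the median of all genes to −0.10 and the share of called genes that were higher from 48.8% to 38.3%, with 12 of 26 called members higher. With shXPO7_3, 0 members were called, 1 with DESeq2, 1 without the filter, 1 with the replicate block (PDGFRB in each), and 6 with the offset for GC content and length. With shXPO7_5, 1 was called, 3 with DESeq2, 2 without the filter (PDGFRB and FGF7), 6 with the offset, 0 at a log2 fold change of at least 1, 0 with only the 2 groups compared, and 0 to 12 with 1 library left out. The fits with 1 library left out called 0.0127% to 23.0% of all genes. Between the shRNAs, 0 were called, and 1 with DESeq2 and 1 without the filter (ANGPT2). The labels do not say what the letters mark. Of 15 same-letter pairs of libraries, 8 had deviations correlated above 0.1 (median 0.11, −0.23 to 0.59), beside 14 of 39 pairs of different letters (median −0.08), and a library matched its own letter best in 6 of 18 cases. The main fit did not take the letters as pairs, since not every same-letter pair was above 0.1. These correlations do not exclude a pairing. With the letter as a replicate block, 26 members were called with RAS induction (FGF7 and ANGPT1 lost, at −0.66 and −0.51 with adjusted p = 0.0633 and 0.0989, and PDGFRB gained), 1 with shXPO7_5 (PDGFRB, adjusted p = 0.00962) and 0 between the shRNAs. Members under 1 CPM rest on few counts, and small differences between shRNA groups were not detectable beside the spread between libraries.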
